A study of Mus musculus with 8 samples.

Results

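Unannotated isoforms of known genes are spliced transcripts that were assembled from the reads at an annotated gene but whose order of introns, the intron chain, is in no transcript of the annotation that guided the assembly. A member here had at least 2 exons, a level of at least 1 TPM (abundance per transcript length, set to the same total in each library), no match to an annotated transcript, and a locus shared with an annotated gene. It was kept when the same intron chain met these conditions in at least 2 of the 8 libraries. In all, 17879 of 289062 spliced intron chains were members, in 8013 of the 13184 genes that hosted any chain tested. Members were thus chosen by their measured TPM and by the number of libraries that held them, so neither is a finding. The series holds RNA-seq of spermatocytes sorted from C57BL/6 mice aged 2 months, at leptotene and at zygotene, from Bend2 WT and Bend2 KO animals. Each combination of genotype and stage is a group with 2 libraries, 4 groups in all, although the series text speaks of 3 replications. The labels do not say whether the 2 libraries of a group came from separate animals, so each p-value measures the spread between these libraries only. The form of the Bend2 mutation is not described in the labels.

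An intron is bounded by a donor site at its 5′ end and an acceptor site at its 3′ end, and the spliceosome joins the exons on either side. A gene gives several isoforms when exons are skipped, when neighbouring sites compete, or when transcripts start and end at other places. Testis and meiotic germ cells are known for a large variety of isoforms. Most introns begin with GT and end with AG, and a small class that begins with ATATC is removed by the minor spliceosome. Leptotene and zygotene are the first stages of meiotic prophase, in which programmed DNA breaks form and homologous chromosomes begin to pair.

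The sequences below show 5 kinds of splice difference on which the results turn. All were read from GENCODE M21 transcripts on GRCm38 and run 5′ to 3′ on the transcript strand. The first set shows exons that members left out. The capitals mark the bases left out, except at the Bend2 locus, where they mark the exon bases that follow the join. The Bend2 locus carries the name Gm15262 in the annotation. Its join removed chrX:161353855-161360320 (plus strand), the Scml2 join removed chrX:161221750-161234612 (plus strand) and the Usp34 join removed chr11:23361717-23363057 (plus strand).
Gm15262: tgtcagcaataagagTATATCTTGGAGATC
Scml2: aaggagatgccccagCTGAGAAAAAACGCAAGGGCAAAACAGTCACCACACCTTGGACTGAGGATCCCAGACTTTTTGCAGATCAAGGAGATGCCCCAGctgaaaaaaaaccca
Usp34: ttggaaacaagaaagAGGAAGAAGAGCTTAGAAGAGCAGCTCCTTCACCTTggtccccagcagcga

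The second set shows acceptors that lie 3 bases downstream of an annotated acceptor, the most frequent shift of a single site. The capitals mark the 3 exon bases left out. The introns lay at chr2:127821857-127821941 (minus strand) in Bub1, chr1:156640613-156640995 (plus strand) in Abl2, and chr11:79436814-79438689 (plus strand) in Nf1.
Bub1: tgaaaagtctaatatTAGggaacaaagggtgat
Abl2: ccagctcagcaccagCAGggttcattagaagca
Nf1: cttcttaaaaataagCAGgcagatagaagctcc

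The third set shows a longer acceptor shift in Brca2, whose intron lay at chr5:150557017-150557141 (plus strand), with the bases left out in capitals.
Brca2: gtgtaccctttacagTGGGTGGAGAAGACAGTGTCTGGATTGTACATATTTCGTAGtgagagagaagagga

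The fourth set shows gaps inside an annotated exon, chosen because they are short and, in Rpph1 and Sympk, lie within repeated bases. The capitals mark the gap, at chr14:50807558-50807578 (minus strand) in Rpph1, chr11:5524278-5524303 (plus strand) in Xbp1 and chr7:19053954-19053977 (plus strand) in Sympk.
Rpph1: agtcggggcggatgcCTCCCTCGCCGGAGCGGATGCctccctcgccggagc
Xbp1: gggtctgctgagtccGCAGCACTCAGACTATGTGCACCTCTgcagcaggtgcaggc
Sympk: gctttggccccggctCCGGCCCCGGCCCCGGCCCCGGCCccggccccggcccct

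The fifth set shows introns that kept their annotated length but were placed a few bases to one side. For each gene the exon bases at the junction are given for the annotated intron and for the slid one, and capitals mark the bases that differ. In Ppme1 both placements give the same spliced sequence. The slid introns lay at chr7:44901718-44902751 (minus strand) in Ap2a1, chr6:30382686-30387418 (minus strand) in Zc3hc1 and chr7:100354801-100355266 (minus strand) in Ppme1.
Ap2a1 annotated: ggggacctccagacTcagctggcggtgcag
Ap2a1 slid: ggggacctccagacAcagctggcggtgcag
Zc3hc1 annotated: gtggaaaccttttctTCtttgaagtgggca
Zc3hc1 slid: gtggaaaccttttctATtttgaagtgggca
Ppme1 annotated: gaaactggcaaggatacttttcgagtttac
Ppme1 slid: gaaactggcaaggatacttttcgagtttac

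The targeted locus was examined first. Transcripts of Gm15262 in the 4 KO libraries joined exon 11 to exon 14 of 15 and left out exons 12 and 13, which hold 122 and 190 bases, 312 bases or 104 codons in all. The TPM through this join, summed over every assembled transcript that held it and scaled between libraries, was 18.3 and 26.8 in KO leptotene and 12.9 and 18.9 in KO zygotene. It was listed at 0 in the 4 WT libraries, so the groups did not overlap. Conversely, the annotated intron from exon 11 to exon 12 had 25.7 and 11.6 TPM in WT leptotene, 13.04 and 10.3 in WT zygotene, 5.09 and 0 in KO leptotene, and 3.10 and 0 in KO zygotene. The TPM of the whole gene overlapped between genotypes, from 12.1 to 47.6 in WT and from 28.2 to 37.6 in KO. The join thus separated the libraries by their labelled genotype, but which join the KO allele should give is not stated. It held 64.7 and 74.4% of the gene's TPM in KO leptotene and 39.0 and 50.2% in KO zygotene. Annotated introns between exons 11 and 14 still had 5.09 TPM in KO leptotene replicate 1. Some of them had 1.11 TPM in KO leptotene replicate 2 and 3.10 in KO zygotene replicate 1. The gene hosted 3 members. Of these, the one with the join was assembled in KO leptotene replicate 2 (3.34 TPM) and KO zygotene replicate 1 (12.9 TPM), and the others used a donor 444 bases downstream of an annotated one.

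A second join that was listed at 0 in all 4 WT libraries lay in Scml2, a Polycomb gene of germ cells whose annotated span ends 29242 bases from that of Gm15262. It left out an exon of 84 bases. The TPM through it was 70.7 and 54.5 in KO leptotene and 65.2 and 41.8 in KO zygotene, which was 88.5%, 68.9%, 53.6% and 44.0% of the TPM of Scml2. As the sequence above shows, the exon left out ends with the same bases as the exon before the join. Its first bases are close to those that follow the join. Reads may be hard to place in such near copies, and their part in the assembly was not tested. In an intron fit, 4368 new introns were fitted with limma as log odds against the rest of the gene. For KO against WT over both stages none passed an adjusted p of 0.05, and 476 (10.9%) had an unadjusted p under 0.05. The Scml2 and Gm15262 joins passed the filter of this fit only through KO libraries and so had to differ. No odds or p are therefore given for them. At the level of the whole isoform, 86 members (0.481%) were called between genotypes, against 0.58% of all chains. Of the 86, 3 lay on chromosome X and only the Scml2 member lay within 5 megabases of Scml2. The share of all members in these regions was not counted, so no conclusion about the region is drawn.

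**Figure D1:**
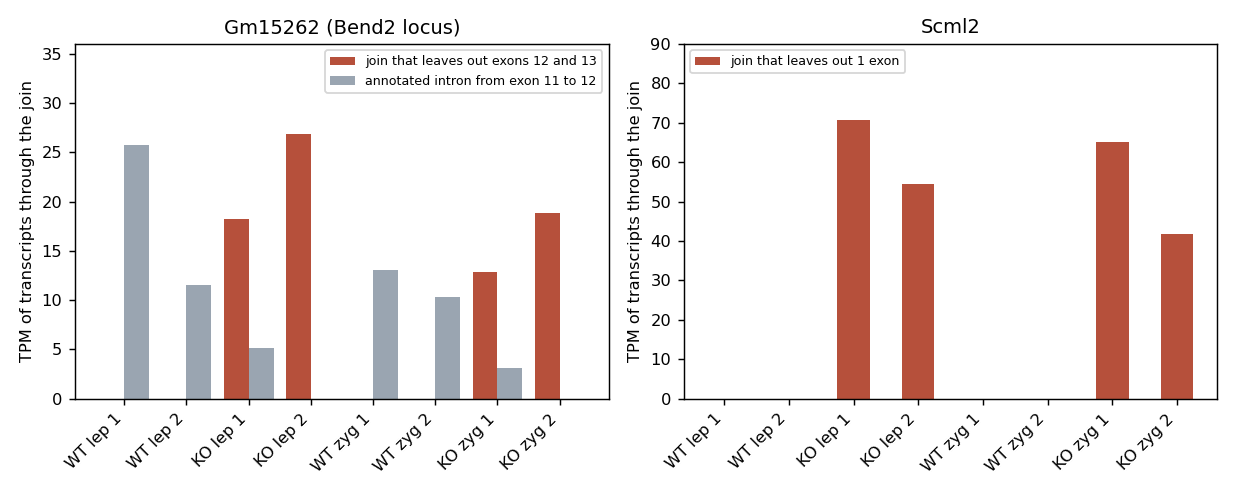
Scaled TPM through each join (vertical axis) in each of the 8 libraries (horizontal axis): on the left the Gm15262 join that leaves out exons 12 and 13 (red) beside the annotated intron from exon 11 to 12 (grey), on the right the Scml2 join that leaves out 1 exon. Both joins are at 0 in the 4 WT libraries and lie between 12.9 and 26.8 (Gm15262) and between 41.8 and 70.7 (Scml2) in the 4 KO libraries.

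The libraries held 6.82 to 9.45 gigabases of assembled coverage. Unannotated transcripts of a single exon, which are no members, took a percent of TPM that split the libraries into 2 sets across the groups. It was 9.90 to 14.4% in the WT replicates 1 and KO replicates 2, and 22.3 to 24.0% in the WT replicates 2 and KO replicates 1. All 11 markers of leptotene and zygotene cells were detected, and their summed TPM overlapped between genotypes (631 to 1424 in WT, 695 to 1014 in KO). Markers of other cells did not overlap: round spermatid markers summed to 3240 to 7154 TPM in WT and 338 to 900 in KO (5 of 5 detected), pachytene markers to 492 to 806 and 47.9 to 140 (5 of 5), and macrophage markers to 77.2 to 175 and 9.53 to 26.5 (4 of 4). Spermatogonial markers summed to 200 to 276 TPM in WT and 428 to 727 in KO (6 of 6). Peritubular (92.1 to 347 against 1.17 to 121), Sertoli (89.8 to 252 against 112 to 173), Leydig (41.6 to 182 against 69.96 to 215, with Hsd3b1 at 0 in all libraries) and erythroid sums (77.7 to 1981 against 2.31 to 1481) overlapped between WT and KO. In such bulk samples, fewer cells of a type and less RNA per cell cannot be told apart.

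Structure was judged against GENCODE M21, a later annotation, together with the annotated transcripts named in the 8 assemblies. Of the members, 9112 (51.0%) were a stretch of an annotated chain without its first or last introns, and 3059 (17.1%) combined annotated introns in a new way. Another 820 (4.59%) joined annotated sites that were not joined before, and 4494 (25.1%) held at least 1 splice site in neither source. The remaining 394 (2.20%) had an intron chain listed in GENCODE M21. Among the partial chains, 4483 lacked introns at the 5′ end only, 3801 at the 3′ end only and 828 at both, and in 7945 of them (87.2%) the transcript ended or began inside an intron of the annotated chain. Most members were found in few libraries, 11252 (62.9%) in exactly 2 and 189 in all 8. The kind shifted with this number: partial chains fell from 53.6% of the members found in 2 libraries to 20.1% of those found in 8, while new combinations went from 14.7% to 36.5%. New splice sites made up 25.6% of the members found in 2 libraries, 22.5 to 24.5% of those found in 3 to 7, and 35.4% of those found in 8. A further 95561 chains met the rule in 1 library only, and 444 of them (0.465%) were in GENCODE M21. At the threshold itself, 645 members had a second highest TPM from 1 to 1.1, and 567 chains just outside had one from 0.9 to 1.

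**Figure D2:**
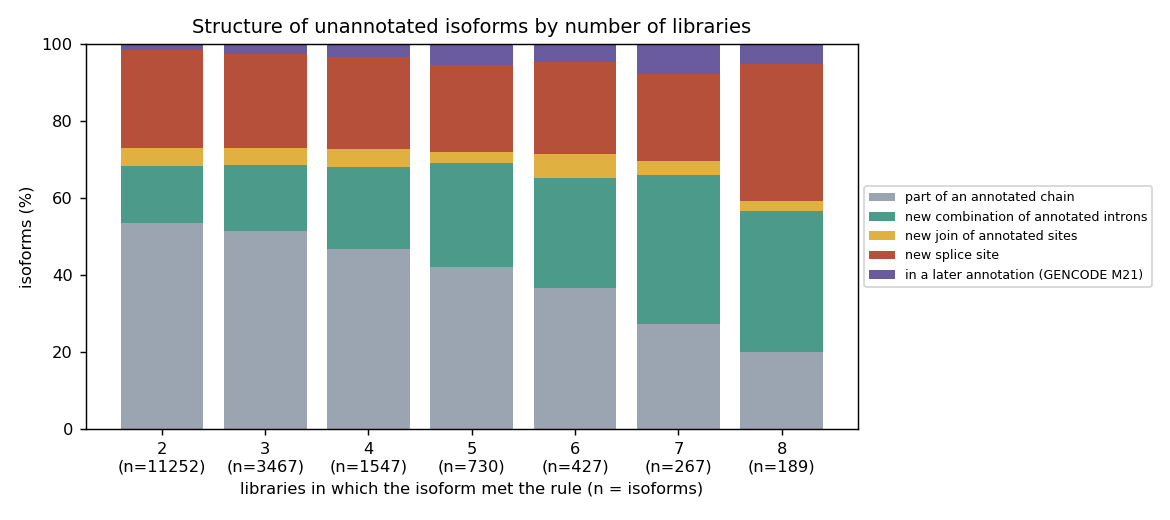
Share of unannotated isoforms of each structural kind (vertical axis, percent) by the number of libraries in which the isoform met the rule (horizontal axis, with the number of isoforms). Stretches of annotated chains make up 53.6% of isoforms found in 2 libraries and 20.1% of those found in 8.

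The hosts were mostly protein-coding, with 17254 members (96.5%), and 136 members lay in long intergenic noncoding RNAs. A host had a median of 2 members. There were 3560 hosts with 1 member and 744 with 5 or more. Hosts with many members included Rapgef1 with 13 and Plec, Brwd1 and Zfp740 with 12 each. A total of 155 members joined 2 genes, and 370 shared no splice site with the gene whose locus they lay in.

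Members were minor products of most hosts. The mean share of host TPM, over the libraries in which the chain was assembled, had a median of 17.9% (quartiles 10.7 and 31.4%), and 10.9% of members held over 50% of their host. Annotated chains tested alongside had a median of 19.7%, and 29.3% of them held over 50%. The mean level over all 8 libraries, with 0 where a chain was not assembled, had a median of 1.14 TPM in members and 2.20 in annotated chains, and 699 members against 4587 annotated chains reached 10 TPM. Where assembled, members had a median of 3.33 to 4.44 TPM by library and annotated chains 3.91 to 5.67. The share was higher in members found in more libraries, with a median of 15.8% in those found in 2 and 44.9% in the 189 found in all 8. The rule sets a minimum TPM, so these levels describe what it kept.

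The libraries of WT spermatocytes held more members than those of KO. The number that met the TPM minimum was 6638 and 6345 in WT leptotene, 6898 and 6341 in WT zygotene, 5047 and 6142 in KO leptotene, and 5391 and 5884 in KO zygotene. Members held 8.39 and 8.80% of the TPM of known genes in WT leptotene, 8.90 and 8.08% in WT zygotene, 6.99 and 7.46% in KO leptotene, and 7.04 and 7.91% in KO zygotene. The 4 KO libraries all lay below the 4 WT libraries in both measures. The share held was 7.35% ± 0.43 (SD, n = 4) in KO and 8.54% ± 0.38 (SD, n = 4) in WT, a difference of -1.19 percentage points. The rule used these TPM values, and more members came from WT libraries only than from KO libraries only, so the difference describes the members chosen and no p is given. Within leptotene the means were 7.22% in KO and 8.59% in WT, and within zygotene 7.47% and 8.49%. In the libraries with less single-exon TPM, WT had 8.39 and 8.90% and KO 7.46 and 7.91%, and in those with more, WT had 8.08 and 8.80% and KO 6.99 and 7.04%. The Rpph1 member alone made up 1.06 to 3.14% of the TPM of known genes, and without Rpph1 the share was 5.48% ± 0.25 (SD, n = 4) in KO and 6.80% ± 0.93 (SD, n = 4) in WT. The markers of spermatids, pachytene cells and macrophages above moved with this difference, and their part in it was not tested. By stage the share was 7.98% ± 0.76 (SD) at zygotene and 7.91% ± 0.83 (SD) at leptotene, a difference smaller than the spread between libraries (n = 4 each).

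**Figure D3:**
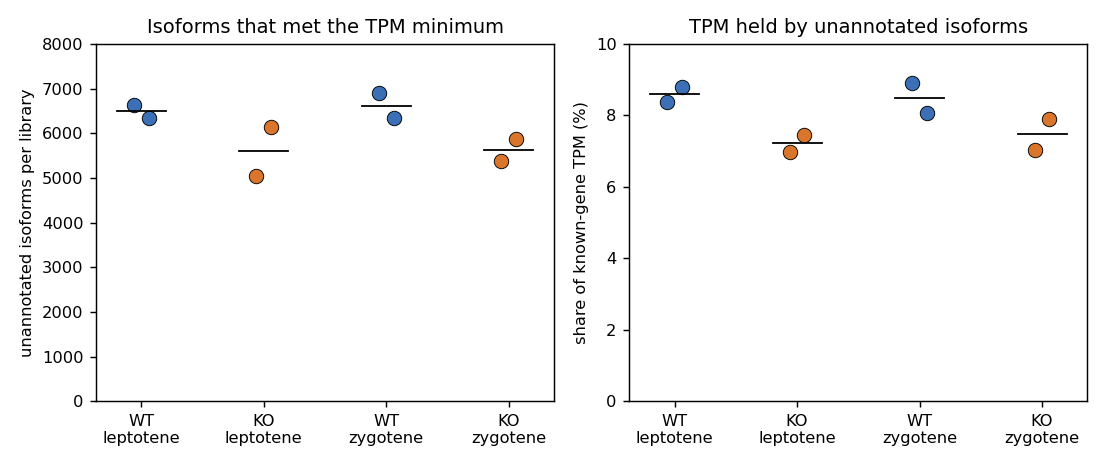
Number of unannotated isoforms that met the TPM minimum (left) and percent of known-gene TPM that they held (right) in each library, by group, each point a library. The 4 KO libraries lie between 6.99 and 7.91%, below the 4 WT libraries between 8.08 and 8.90%.

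For members found in exactly 2 libraries, pairs of libraries were counted by what they shared. A pair of the same genotype and other stage shared a median of 499 such members and a pair of the same group 463.5, while a pair of other genotype and same stage shared 365.5 and a pair that differed in both 327.5. Across stages, WT pairs shared 480 to 654 and KO pairs 368 to 518, while pairs of other genotype shared 284 to 419, so KO pairs overlapped that range and WT pairs did not. These are counts without a test, since each library enters several pairs. In all, 3557 members (19.9%) were assembled in WT libraries only and 2528 (14.1%) in KO libraries only, against 1577 (5.98%) and 304 (1.15%) of annotated chains. Assembly at 1 stage only was counted for 2330 members at leptotene and 2401 at zygotene. Among members, 142 (0.794%) were in all 4 WT libraries and no KO library and 29 (0.162%) the opposite, against 462 (1.75%) and 40 (0.152%) of annotated chains. Assembly in every library was rare among members, at 245 (1.37%) against 13640 annotated chains (51.7%).

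The 10 members of highest mean TPM among the 189 that met the rule in all 8 libraries lay in Rpph1, Rpl6, Rps12, Ddx5, Rpl8, Gm4969, Csnk1g2, Mex3d, Ap2a1 and Ubb. A 2610318N02Rik member was assembled in all 8 libraries but was not ranked with these. It had 42.8 to 430 TPM and held 89.1 to 100% of its gene. The Rpph1 member, in the gene of the RNA component of RNase P, ranged from 7614 to 23881 TPM and differed from the annotated RNA by a 21-base gap. Ribosomal protein genes gave 3 of the 10: the Rps12 member held 81.1 to 96.2% of its gene, the Rpl6 member 57.8 to 87.0% and the Rpl8 member, an intron chain of GENCODE M21, 13.5 to 99.7%. Other members were the main product of their gene in every library. Ap2a1, a subunit of the clathrin adaptor AP-2, had a member at 91.7 to 96.9% of its TPM. Gars, the glycyl-tRNA synthetase, had one at 87.9 to 99.4%, and the glucose transporter Slc2a3 one at 86.7 to 99.9%. The same rule named AC166361.2 (83.2 to 99.7%), the germ cell RNA helicase Ddx25 (81.6 to 94.5%), Vps13c (73.6 to 92.5%), the ubiquitin ligase Nedd4 (68.4 to 93.9%), Zc3hc1 (68.7 to 96.4%) and Wbscr25 (71.3 to 97.1%). Atm, the DNA damage kinase, was noticed after its values were seen. A new combination of its annotated introns held 56.8 to 91.3% of Atm in the 8 libraries.

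Several of these dominant members had a slid intron as their only new intron, as in the Ap2a1 and Zc3hc1 sequences above. Whether their other introns matched a single annotated transcript was not checked. There were 58 slid introns, slid by at most 8 bases, in 142 members, and 18 of those members were found in all 8 libraries. These 18 had a median lowest share of 36.8% of their host. The annotated intron began with ATATC in 10 of the 19 slid introns whose first 5 bases could be read (52.6%), against 62 of 49068 annotated introns (0.126%). Only the transcript strand was searched. In 7 of 19 that could be read, as in Ppme1 and in the iron-sulphur assembly gene Fam96b, both placements gave the same exon sequence. The Fam96b member, named after its values were seen, held 44.97 to 88.3% of its gene.

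In 5314 members, 5163 introns were found neither in GENCODE M21 nor in the annotated transcripts named in the assemblies. Of these, 1702 (33.0%) used 1 new donor over 10 bases from an annotated one and 985 used 1 new acceptor that far. Both sites were new in 873, while 785 joined annotated sites and 342 were gaps inside an annotated exon. Shifts of 10 bases or fewer accounted for 315 acceptors and 103 donors, besides the 58 slid introns. Both ends could be read in 914 introns, and 664 of them (72.6%) were GT-AG.

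Close acceptors were mostly 3 bases apart. Among 1300 introns with 1 new acceptor, 128 lay 3 bases downstream and 54 lay 3 bases upstream of an annotated acceptor, together 14%, whereas 46 lay 4 bases and 28 lay 5 bases downstream. In 127 of the 128 downstream sites the bases left out were NAG, with 76 CAG, 28 AAG, 19 TAG and 4 GAG. In 114 the site lay in coding sequence, where the change keeps the reading frame, and 45 were found in at least 4 libraries. Bub1, a spindle checkpoint kinase named after its values were seen, had such a member in every library, at 24.95 to 67.4% of its TPM. Donor shifts were less concentrated: of 1805 introns with 1 new donor, 22 lay 4 bases downstream and 11 lay 4 bases upstream.

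**Figure D4:**
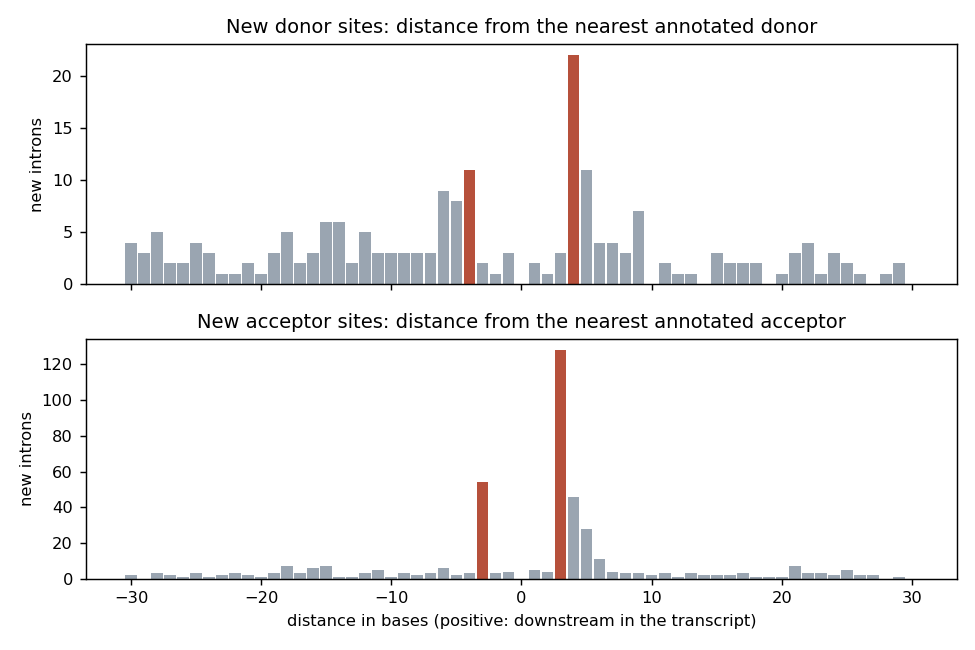
Number of new introns (vertical axes) by distance in bases from the nearest annotated donor (top) or acceptor (bottom), positive downstream in the transcript, within 30 bases on either side. The red bars mark 3 bases for acceptors, with 128 introns downstream and 54 upstream, and 4 bases for donors, with 22 and 11.

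The longer acceptor shift shown for Brca2, a gene of DNA break repair, removed 41 bases, not a multiple of 3. The member had 24.0 and 8.32 TPM in WT leptotene, 6.71 and 4.10 in WT zygotene, 14.7 and 13.2 in KO leptotene, and 0 and 22.7 in KO zygotene. Its level spread as widely within KO as between the genotypes.

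New joins of annotated sites mostly skipped exons. In 621 of 785 an annotated path between the sites existed, and 566 of these left out 1 exon and 55 more than 1. Of 479 joins that left out only coding exons, 203 (42.4%) removed a multiple of 3 bases, close to the 41.0% of 167745 internal coding exons. Skips that were found in all 8 libraries included 36 bases of Usp34, a deubiquitinase, at 60.1 to 89.2% of its TPM, and 87 bases of Vav2, a guanine nucleotide exchange factor, at 39.6 to 69.6%. A skip of 74 bases in the RNA-binding gene Hnrnpul2 was assembled in 7 libraries, at 24.0 to 64.8%. These 3 were chosen after their values were seen.

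The 342 gaps inside exons had a median length of 109 bases, and 113 were under 70 bases, the shortest being 20. In 137 (40.1%) the gap was flanked by a repeat of 8 or more bases. Such repeats were present in 46 of 177 GT-AG gaps and in 91 of 165 others. In Ubb, which encodes ubiquitin copies head to tail, the gaps were 228 or 456 bases long, multiples of the 228 bases (76 codons) of 1 ubiquitin. The Ubb member named for its level had 24.2 to 153 TPM, 4.87 to 25.3% of Ubb. The Rpph1 gap of 21 bases could be slid over at least 23 bases with the same spliced sequence, where 15 bases were searched on each side. The Xbp1 gap of 26 bases lay in the mRNA of a transcription factor of the unfolded protein response, from which the endonuclease IRE1 removes a short piece. That member, chosen after its values were seen, had 2.91 to 9.97 TPM in 7 libraries, 11.8 to 35.8% of Xbp1, and was listed at 0 in KO zygotene replicate 2.

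Differences between KO and WT were tested with limma on log2(scaled TPM + 1) over 56195 chains, of which 17879 were members. A chain that was not assembled in a library is listed at 0, and on simulated data this fit called unchanged chains of that kind, at a higher rate than it called chains in the real data. A fit over the 13925 chains assembled in all 8 libraries, which include no chain listed at 0, was chosen after seeing the data and is given first. It called few unchanged chains on simulated data. The simulated libraries were independent, so this does not cover libraries that came from the same animals. In the real data this fit called 186 chains (1.34%) for KO against WT over both stages, 158 lower and 28 higher in KO. Among them were 7 of the 245 members. All 7 were lower in KO, the direction of most calls over all chains. They had no overlap between the 4 KO and the 4 WT libraries, and were chosen for their values.

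The isoform with the lowest p lay in Aamp, a WD-repeat gene, and combined 10 annotated introns in a new way. It had 66.4 and 78.9 TPM in WT leptotene, 57.4 and 120 in WT zygotene, 12.6 and 11.5 in KO leptotene, and 21.04 and 17.2 in KO zygotene. The means were 80.6 ± 27.6 (SD, n = 4) in WT and 15.6 ± 4.4 (SD, n = 4) in KO, with a log2 difference of -2.28 ± 0.29 (SE) and a limma adjusted p of 0.0134. It made up 58.7 to 84.2% of Aamp in WT and 10.99 to 20.2% in KO, while the whole gene differed by -0.33 on the log2 scale. The difference in share did not pass the test across chains (limma adjusted p 0.206). Under 14 alternatives the adjusted p was under 0.05 in 11 and reached 0.0762.

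Jarid2, an accessory subunit of Polycomb repressive complex PRC2, was the other called gene with a small difference in the host. Its member had 37.7 and 26.8 TPM in WT leptotene, 15.7 and 18.6 in WT zygotene, 6.32 and 4.23 in KO leptotene, and 11.3 and 7.85 in KO zygotene. The log2 difference was -1.60 (limma adjusted p 0.044), against -0.37 for the gene, and the difference in share did not pass (adjusted p 0.434). The adjusted p of the level stayed under 0.05 in 3 of 14 alternatives, the fewest of the 7.

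In the other 5 the host was lower as well, and the isoform's adjusted p stayed under 0.05 in 9 of 14 alternatives for Crisp2, 5 for Ace and Rnf139, and 4 for Cdkn3 and Hk1. Crisp2, a sperm acrosome and tail protein, had the largest difference, -3.52 ± 0.50 (SE, limma adjusted p 0.0202), from 66.7 ± 28.7 TPM (SD) in WT to 5.62 ± 5.48 (SD) in KO, and its host differed by -3.85. Ace, which has a testis form made in spermatids, differed by -2.22 (adjusted p 0.029, host -2.72). The ubiquitin ligase Rnf139 differed by -1.94 (adjusted p 0.035, host -1.18), the cell cycle phosphatase Cdkn3 by -1.58 (adjusted p 0.044, host -1.66) and the hexokinase Hk1 by -2.22 (adjusted p 0.0484, host -1.73). Round spermatid markers were lower in the same 4 KO libraries, and their part in these differences was not tested. The number of the 245 members called depended on single libraries. Leaving out replicate 1 of a group gave 3 for WT leptotene, 2 for KO leptotene, 1 for WT zygotene and 13 for KO zygotene. Leaving out replicate 2 gave 2 for KO zygotene and 0 for each of the other 3 groups.

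**Figure D5:**
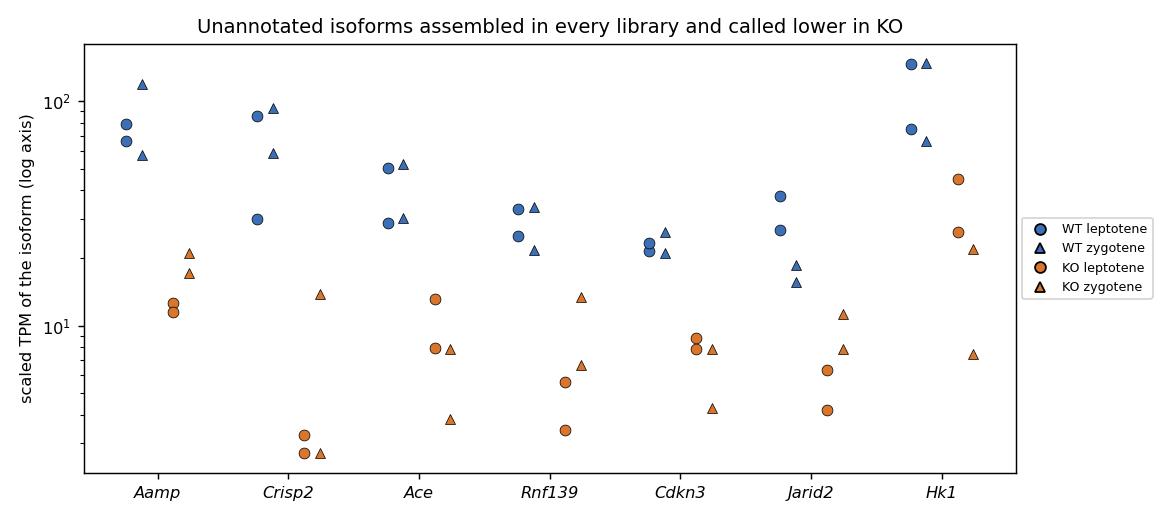
Scaled TPM (log axis) of the 7 unannotated isoforms assembled in all 8 libraries and called lower in KO, each point a library, circles for leptotene, triangles for zygotene, blue for WT and orange for KO. In each gene every KO library lies below every WT library, for example 11.5 to 21.04 against 57.4 to 120 in Aamp.

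No member assembled in all 8 libraries was called higher in KO. Among those with higher values, the Dazl member, in a gene required for germ cell translation and meiotic entry, had 40.7 and 56.3 TPM in KO leptotene and 26.5 and 31.7 in KO zygotene, against 14.7 and 3.50 in WT leptotene and 9.69 and 11.1 in WT zygotene. The log2 difference was 1.97, with a limma adjusted p of 0.055 among chains assembled in all 8 libraries and 0.138 over all chains, and the host was higher by 1.01. Piwil2, a piRNA-binding Argonaute noticed after its values were seen, differed by 1.92 (adjusted p 0.0531). The RNA helicase Ddx5 had a member at 19.7 to 29.0% of its TPM in WT and 42.0 to 53.7% in KO. Its level was 63.0 ± 9.27 TPM (SD, n = 4) in WT and 125 ± 22.6 (SD, n = 4) in KO, without overlap and with a host difference of -0.02. The level fit over all chains gave it a log2 difference of 0.96 with a limma adjusted p of 0.117. Spermatogonial markers were higher in the same KO libraries (428 to 727 TPM against 200 to 276), and their part in these differences was not tested.

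The fit over all 56195 chains called 326 (0.58%), 30 higher (0.0534%) and 296 lower (0.527%) in KO. Members gave 86 calls, 0.481% of 17879, with 12 higher and 74 lower. Of the 86, 62 were in chains assembled in exactly 4 libraries and 1, Aamp, in a chain assembled in all 8. A chain listed at 0 throughout a group passed the filter only through the other group and had to differ, so its call describes where it was assembled, and no p is given for it below. Among the 74 lower members, in 73 hosts, 60 were listed at 0 in all 4 KO libraries, 42 had a host lower by 1 or more on the log2 scale and 17 a host within 0.5. Among the 12 higher members, 9 were listed at 0 in all 4 WT libraries and 10 had a host within 0.5. Of 32 lower members with a new intron, 19 had all their new introns in KO through other chains, and 13 had at least 1 that was listed at 0 in all KO libraries. Of 5 higher members with a new intron, only Scml2 had 1 that was at 0 in all WT libraries. With replicate 1 of WT leptotene left out 560 members were called, with replicate 1 or 2 of WT zygotene left out 622 or 600, and with any 1 of the other 5 libraries left out (replicate 2 of WT leptotene and the 4 KO libraries) none.

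Among the falls whose gene did not fall with them, Ddx39b, an RNA helicase of splicing and mRNA export, had a member at 26.1 and 37.0 TPM in WT leptotene and 38.4 and 35.6 in WT zygotene. It was 37.0 to 54.9% of Ddx39b in WT and was listed at 0 in all KO libraries. The host was higher in KO by 0.55 on the log2 scale. The axonemal dynein gene Dnah2 had a member with 3 new introns at 11.3 to 19.9 TPM in WT and 0 in KO, 43.6 to 84.3% of Dnah2 in WT, and the host differed by 0.05. Its new introns were all present in KO through other chains, the first at 8.97 to 17.1 TPM in KO and 12.8 to 20.7 in WT. The calcium channel gene Itpr1 had one at 9.18 to 19.98 TPM in WT and 0 in KO (host 0.46). Its new intron had 7.09, 16.4, 0 and 22.7 TPM in the 4 KO libraries through other chains.

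The other falls named for their size were the histone chaperone subunit Supt16 (25.3 to 52.4 TPM in WT), the ribosomal protein gene Rpl9 (10.5 to 74.5), the prothymosin relative Ptms (9.79 to 62.7), Lrrc8b (16.7 to 40.05), Dnajc7 (16.1 to 41.3), Tmco5 (14.0 to 36.1) and Ccdc38 (14.5 to 34.7). All were listed at 0 in the 4 KO libraries. The hosts of Ccdc38, Tmco5 and Lrrc8b were lower by over 1 on the log2 scale, and those of Rpl9, Dnajc7 and Ptms by less. The Supt16 gene was listed at 0 in KO leptotene replicate 1 and had 63.6 to 69.1 TPM in the other 3 KO libraries, against 40.7 to 75.8 in WT. The new intron of Ptms was listed at 0 in all KO libraries, and that of Tmco5 had at most 1.59 TPM in KO. In contrast, that of Dnajc7 had 2.51 to 16.6 TPM in KO through other chains, and those of Lrrc8b up to 10.1. A new intron near 0 in KO also lay in the ciliary gene Cep290, with 13.9 to 44.8 TPM in WT and at most 2.11 in KO. It was chosen for its low p in the intron fit, whose filter it passed only through WT libraries, so no p is given.

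The rises were smaller in TPM. The member of Cdc45, a subunit of the replicative helicase, had 20.96 and 9.73 TPM in KO leptotene and 9.32 and 17.1 in KO zygotene and was listed at 0 in WT (host 0.35). The Scml2 member had 3.72 and 7.51 TPM in KO leptotene and 21.4 and 16.3 in KO zygotene. Zcwpw2, Iqsec1 and Stat2 had members at 8.07 to 10.5, 8.97 to 15.8 and 3.39 to 8.27 TPM in KO and 0 in WT. Tjp1 (8.74 to 13.3 TPM in KO, 0 to 1.76 in WT) and the chaperone gene Dnaja1 (13.2 to 27.2 in KO, 0 to 6.31 in WT) were assembled in some WT libraries. The hosts of all these genes but Scml2 were within 0.5 on the log2 scale.

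At a single stage the level fit called 1 chain for KO against WT at leptotene (0.00178%), not a member, and none at zygotene (0%). Unadjusted p under 0.05 was reached at leptotene by 1904 members (10.6%) against 10.6% of all chains, and at zygotene by 1859 (10.4%) against 10.2%, rates near those of all chains. The member of lowest p at leptotene lay in Sympk, a scaffold of mRNA 3′ end processing. It had 54.3 and 69.5 TPM in the KO leptotene libraries and was listed at 0 elsewhere. The 24-base gap of Sympk shown above was also assembled in other chains, and the TPM through it was 62.7 in WT leptotene replicate 2. The lowest p at zygotene included an Hspa8 member at 64.3 and 94.5 TPM and a Col1a2 member at 89.1 and 140 TPM, both in WT zygotene only. The Sympk, Hspa8 and Col1a2 members passed the filter only through the group that held them and had to differ.

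Zygotene against leptotene called no chain (0%), with unadjusted p under 0.05 in 2326 members (13.01%) against 9.66% of all chains. The member with the lowest p lay in Dek, a chromatin protein. At zygotene it had 25.7 and 27.0 TPM in WT and 29.1 and 37.4 in KO, 74.6 to 78.1% of Dek, and was listed at 0 in the 4 leptotene libraries. A Dazap1 member had the same pattern with 17.996 to 33.6 TPM, and a Dopey1 member the opposite, with 14.5 to 20.4 TPM at leptotene. The difference of the KO effect between stages called no chain, with 2291 members (12.8%) against 8.91% of all chains at an unadjusted p under 0.05. The member nearest to a call lay in Eef1g, a translation elongation factor subunit. It had 157 and 50.9 TPM in KO leptotene and 101 and 134 in WT zygotene and was listed at 0 in the other 4 libraries, while the host differed by -0.20 between genotypes. Chains listed at 0 on a whole side of a comparison passed the filter only through the other side and had to differ. Most members (62.9%) were found in exactly 2 libraries. Neither these rates nor these examples are therefore a result about the members.

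The share of host TPM was fitted with limma over 38721 chains, 15676 of them members, as the log2 ratio of the chain to the rest of its gene. It called no chain in any of the 5 comparisons, and on simulated data it recovered no changed chain, so these zeros carry little information. Unadjusted p under 0.05 was reached by 1523 members (9.72%) against 7.48% of all chains for KO against WT at leptotene, by 1405 (8.96%) against 6.9% at zygotene, and by 1962 (12.5%) against 9.62% over both stages. For zygotene against leptotene it was 1528 (9.75%) against 6.61%, and for the difference between stages 1495 (9.54%) against 6.21%. Chains listed at 0 on a whole side of a comparison had to differ here as well, so these rates are no result about the members. The 3 members of lowest p over both stages were those of Ddx39b, Dnah2 and Itpr1, all listed at 0 in KO and so bound to differ. Restricted to chains assembled in all 8 libraries, the share fit again called none of 13699, with 1230 (8.98%) at an unadjusted p under 0.05, among them 24 of 244 members. The lowest p among these members belonged to Aamp (log2 -3.40, adjusted p 0.206), Pdzd8 (-3.998, adjusted p 0.23) and Mex3d (-3.12, adjusted p 0.238). The Mex3d member held 91.3 to 94.0% of its gene in WT and 37.9 to 75.7% in KO.

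Genes of meiosis and germ cells hosted members in every list examined, and 4 were called between genotypes by the fit over all chains, which called 0.481% of all members and 0.58% of all chains. Members numbered 32 in genes of double-strand break formation, 66 in recombination and crossover, 48 in the synaptonemal complex and cohesin axis, 12 in the BEN domain family, 40 in meiotic entry, 28 in telomere attachment and 111 in splicing regulators of germ cells, and none of these was called by the level fit over both stages. One of 48 in the piRNA pathway was called lower (Tdrd6), 1 of 105 in chromatin repressors higher (Scml2), and 2 of 21 in spermatid and sperm structure lower, both in Odf2, an outer dense fibre gene. The Scml2 member was listed at 0 in WT, and 1 of the 2 Odf2 members was assembled in WT zygotene only. These passed the filter through 1 genotype and had to differ, so their calls are no result about the lists. The median log2 difference was -1.26 over the members in spermatid genes and between -0.10 and 0.37 in the other lists, against -0.04 over all members and -0.07 over all chains.

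The most abundant member of each list showed how uneven assembly was. Tex15, which acts in recombination and piRNA-directed silencing, had a member at 94.2 and 49.1 TPM in WT leptotene, 19.95 and 50.8 in WT zygotene. It had 72.2 and 57.8 TPM in the KO replicates 2 and was listed at 0 in both KO replicates 1. The synaptonemal complex gene Syce2 had one at 11.9 to 66.6 TPM in 7 libraries and 0 in KO leptotene replicate 2. Ehmt2, an H3K9 methyltransferase, had one at 50.3, 43.8 and 103 TPM in 3 KO libraries and 0 elsewhere. Members of Banp, of the BEN domain family (6.52 to 24.5 TPM in 5 libraries), and of the LINC complex gene Sun1 (13.4 to 20.1 TPM in 4 libraries) crossed genotypes. None of these 5 was called.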

How the data were processed

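The data are 8 deposited transcript assemblies, 1 per library. Per the file headers they were made with StringTie 2.1.2, guided by the Ensembl 89 annotation of GRCm38, without a strand option and without merging. HISAT2, DESeq2 and the build mm10 are named, without versions, in the submitters' processing notes. The labels' protocols name total RNA in TRIzol and a directional kit. The authors deposited TPM for each transcript, and no counts, so counting error is unknown. The members and gene lists were chosen with earlier results of these data known.

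Transcripts were matched across libraries by identical intron chain (Python 3.11.15, pandas 2.3.3). Annotated introns and splice sites were those of GENCODE M21 and of the annotated transcripts named in the assemblies, not the full guiding annotation. The host was the gene of the locus sharing most splice sites. TPM was scaled by median-of-ratios factors, and all TPM given are scaled. Level, log2(TPM + 1), and share, log2((chain TPM + 0.5)/(rest of host TPM + 0.5)), were fitted over all 8 libraries with 4 group means in limma 3.58.1 (eBayes with intensity trend, R 4.3.3), for chains that reached 1 TPM in 2 or more libraries. The share fit also required a host TPM of at least 1 in all 8 libraries. Benjamini-Hochberg adjusted p under 0.05 was called. Both fits were tested on simulated data. The level fit called unchanged chains listed at 0 in some libraries and the share fit recovered none, so fits over chains assembled in all 8 libraries were added after seeing the data.

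Named members were the 10 of highest mean TPM and the 10 of highest lowest share among those found in all 8 libraries, up to 8 called rises and 8 called falls without overlap by size, the 3 of lowest p where none was called, up to 4 each way by stage, and the most abundant member of each list. Others are said to have been chosen after their values were seen. Alternatives were other pseudocounts, filters, scalings, denominators, a replicate block, covariates and leaving out each library. Replicate numbers were not used to pair libraries in the main fits. Within a genotype, same-numbered libraries of the 2 stages resembled each other. Erythroid sums at leptotene and zygotene were 77.7 and 172 TPM in WT replicates 1 and 1813 and 1981 in WT replicates 2. They were 672 and 1481 TPM in KO replicates 1 and 3.39 and 2.31 in KO replicates 2. Whether such libraries came from the same animals is not known. If so, the p-values over both stages rest on fewer independent samples than libraries.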

Additional observations from a re-analysis of the deposited data

How the results depend on the processing

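Where a library was left out, the lone library of its group was assumed to vary like the other groups. For the level of members in KO against WT over both stages, the 86 calls became 149 with a pseudocount of 0.1, 48 with 5, 141 with a filter at 5 TPM, 170 without an intensity trend, 0 with a replicate block, 44 with a covariate for single-exon TPM (added after seeing the data), 7 among chains assembled in all 8 libraries (likewise added), and 0 to 622 with a library left out. The 7 calls among chains assembled in all 8 libraries became 4 and 12 with pseudocounts of 0.1 and 5, 24 with TPM as deposited, 2 with a replicate block, 33 with the covariate, 2 without a trend and 0 to 13 with a library left out. The 0 calls at leptotene became 903 with a pseudocount of 0.1, 12 without a filter, 5 with a filter at 5 TPM, 92 without a trend and 0 to 529 with a library left out. At zygotene they became 883 with a pseudocount of 0.1, 6 without a filter and 0 to 551 with a library left out. For stage they became 5 without a filter, 1 without a trend and 0 to 406 with a library left out, and for the difference between stages 1 without a filter, with a filter at 5 TPM or with TPM as deposited, and 0 to 412 with a library left out. The share fits stayed at 0 calls except for 1 call with 2 TPM added at zygotene, for stage and for the difference between stages, and 1 for that difference with the locus as denominator. The number of members was 4811 at 5 TPM, 6627 with 3 libraries required and 14699 to 15546 with a library left out. The KO minus WT share of TPM held was -1.008 at 5 TPM, -0.803 with 3 libraries required and -1.28 to -0.90 with a library left out. The difference by stage, 0.072, changed sign, to -0.208 without Rpph1 and from -0.237 to 0.375 with a library left out. Correlations between same-numbered libraries were 0.0886 in WT and 0.0491 in KO across stages, and -0.0431 to -0.0322 between genotypes. The replicate block also pairs equal numbers across genotypes, so it rests on numbers alone. Of 467 alternative values for 30 named members, 249 kept their call, 218 lost it and 0 changed sign. Depth per library is known only as assembled coverage, since no counts were used, and a chain near 1 TPM may be listed at 0 where it was not assembled. The cause of these changes was not tested.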
